A study of Mus musculus with 11 samples.

Results

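Transcripts of 10 integrin subunits were measured in single cells of the mouse right brain: the beta subunits Itgb1, Itgb2, Itgb3 and Itgb5 and the alpha subunits Itgav, Itga4, Itga5, Itga6, Itgal and Itgam. These 10 were chosen by name, with earlier results of these data known, from the 27 integrin subunit genes among the 32285 genes of the count matrices. The 4 groups were sham + WT (3 mice), sham + Lrg1-/- (3 mice), MCAO/R + WT (2 mice) and MCAO/R + Lrg1-/- (3 mice), with 1 library per mouse. MCAO/R is occlusion of the middle cerebral artery by a suture followed by reperfusion, a model of ischaemic stroke, and sham mice had the same operation without the suture entering the artery. The study's methods list several reperfusion times for the model without tying one to these libraries, and its discussion speaks of an hour. Lrg1-/- mice carry a germline deletion in every tissue that removes Lrg1, the gene of a secreted leucine-rich glycoprotein, from exon 1 to the stop codon in exon 2. By the study's methods the WT mice were C57BL/6 males of 8 to 10 weeks. The Lrg1-/- mice, for which both C57BL/6N and C57BL/6 J are named as background, were 3 months old, and their sex is not given. Genotype, age, colony and any difference in sex therefore cannot be told apart. The cell suspensions of all groups were treated to lyse red blood cells.

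Integrins are cell surface receptors, each a pair of 1 alpha and 1 beta subunit, that bind extracellular matrix or counter-receptors on other cells and link them to the actin cytoskeleton. Their affinity is raised from inside the cell when talin and kindlin bind the beta tail, and bound integrins signal through focal adhesion kinase and its partners. In the brain, beta1 integrins with the alpha6 subunit anchor vessels and astrocyte endfeet to laminin, alpha5 with beta1 binds fibronectin, and alphav with beta3, beta5 or beta8 binds proteins with the RGD motif and can activate latent TGF-beta. The beta2 integrins are leukocyte receptors: alphaM beta2 (CD11b, also complement receptor 3) is a classical marker of microglia, and alphaL beta2 (LFA-1) binds ICAM proteins. Alpha4 with beta1 is VLA-4, which binds VCAM-1 and carries leukocytes across brain vessels.

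The promoters of Itgam, Itgav and Itga5 are shown because Itgam is the classical microglial marker and was highest in microglial cells of sham + WT brains, and because Itgav and Itga5 were higher together in Lrg1-/- microglial cells. Each line holds the 250 bases before the transcription start in RefSeq, on the gene's own strand (GRCm38.p6), at chr7:128062390-128062639 (plus strand), chr2:83724147-83724396 (plus strand) and chr15:103366792-103367041 (minus strand). Capitals mark GAGGAA, the core recognised by the myeloid factor PU.1, and its reverse complement TTCCTC.
Itgam: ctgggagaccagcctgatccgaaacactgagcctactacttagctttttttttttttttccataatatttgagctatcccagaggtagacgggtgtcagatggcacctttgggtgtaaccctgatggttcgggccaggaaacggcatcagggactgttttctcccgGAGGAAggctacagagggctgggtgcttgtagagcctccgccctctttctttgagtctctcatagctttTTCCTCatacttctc
Itgav: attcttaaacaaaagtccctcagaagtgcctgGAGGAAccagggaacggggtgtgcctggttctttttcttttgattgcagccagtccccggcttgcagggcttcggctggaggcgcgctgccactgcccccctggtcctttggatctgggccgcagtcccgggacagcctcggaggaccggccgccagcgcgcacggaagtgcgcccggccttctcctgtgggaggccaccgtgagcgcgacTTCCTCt
Itga5: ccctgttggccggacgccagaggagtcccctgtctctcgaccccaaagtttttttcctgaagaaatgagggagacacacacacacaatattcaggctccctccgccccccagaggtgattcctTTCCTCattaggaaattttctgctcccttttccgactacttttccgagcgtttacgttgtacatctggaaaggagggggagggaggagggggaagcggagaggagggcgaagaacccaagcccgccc
The letters lay 84 and 15 bases before the start of Itgam, 218 and 7 bases before that of Itgav and 127 bases before that of Itga5. Of the 6 members with a promoter in the table, 4 held the motif on either strand, and so did 7639 of the 32851 promoters of the same length (23.3%), so a match is a description and not a site. In the GENCODE annotation of GRCm38, Itgam lies on chromosome 7 from 128062640 to 128118491 and Itga5 on chromosome 15 from 103344286 to 103366763. Itgav lies on chromosome 2 from 83724397 to 83806916 and overlaps the noncoding gene Gm13684 on the other strand.

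The authors' matrices held 155804 barcodes, of which 125301 were used as cells after filtering and removal of 7136 predicted doublets. Total UMIs, the distinct molecules counted in a library, ranged from 110423176 to 115001970 in sham + WT, from 37159497 to 70976468 in sham + Lrg1-/-, from 135747375 to 144393940 in MCAO/R + WT and from 51062713 to 171813031 in MCAO/R + Lrg1-/-. The lowest UMI count of a barcode was 500 in each WT library. In Lrg1-/- libraries it was 500 to 770, and some held round barcode numbers (15500, 9000, 5650 and 8500). Whether barcodes were selected alike in both genotypes was not tested. Lrg1 had 190 to 654 UMIs in the sham + WT libraries and 15593 to 17266 in the MCAO/R + WT libraries. It had 0 UMIs in 5 Lrg1-/- libraries and 1 UMI in the other. Cells of clusters with no clear marker pattern were left unnamed, and these made up 4.66% to 24.1% of a WT library but 21.3% to 69.7% of an Lrg1-/- library. Haemoglobin transcripts took 0.0071% to 0.0195% of the UMIs of WT libraries and 3.46% to 9.08% of those of Lrg1-/- libraries. Of the distinct barcodes, 2809 (1.84%) occurred in more than 1 library. Levels below are CPM, the UMIs of a cell type summed over a library and scaled to a common total of 1e+06, and they compare 1 gene between samples, not genes with each other.

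In sham + WT brains each member had its own pattern over the 14 cell types with at least 2 libraries, and in 8 of the 10 the lowest library of the top cell type lay above the highest library of the next. The same share over all genes is not given, so this count is a description and no trait of integrins. Among the matrix receptors, Itgb1, the common partner of many alpha subunits, was at 1129 CPM in vascular smooth muscle cells (1098 to 1168 over 3 mice) and 771 CPM in pericytes (752 to 792). Endothelial cells held 395 CPM of Itgb1, and their range overlapped that of choroid plexus capillary endothelial cells (455 CPM). Itga6, the laminin receptor subunit, was at 594 CPM in endothelial cells (587 to 605), 406 CPM in choroid plexus capillary endothelial cells and 223 CPM in astrocytes. Itga5, which pairs with beta1 to bind fibronectin, was highest in monocytes and macrophages (139.9 CPM, 102 to 164), with 62.5 CPM in microglial cells and 42.8 CPM in endothelial cells. In this order the laminin subunit peaked in vessels and the fibronectin subunit in blood-derived myeloid cells.

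Itgb5 and Itgav peaked in resident macrophages. Itgb5 was at 743 CPM in microglial cells (724 to 759), far above pericytes at 262 CPM and border-associated macrophages, the macrophages of brain membranes and vessel walls, at 178 CPM. Itgav was at 301 CPM in border-associated macrophages (285 to 328). It was lower in monocytes and macrophages (174 CPM), microglial cells (156 CPM) and astrocytes (145 CPM), whose ranges overlapped in this order. Itgb3, the beta chain of integrins of platelets and endothelium, was low throughout, and its level in microglial cells (21.8 CPM) overlapped that in B cells (21.7 CPM).

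The leukocyte subunits peaked in immune cells. Itgam was at 395 CPM in microglial cells (389 to 408), 199 CPM in monocytes and macrophages and 96.6 CPM in border-associated macrophages. Itgb2, its beta partner, was at 244 CPM in monocytes and macrophages and at 120.4 CPM in microglial cells. Neutrophils and fibroblasts had 1 sham + WT library each and were left out of these orders; the neutrophil library, of 20 cells, held 387 CPM of Itgam (44 UMIs), 299 CPM of Itgb2 (34 UMIs) and 273 CPM of Itgal (31 UMIs), the last 2 above the monocyte and macrophage means, and the fibroblast library, of 26 cells, held 302 CPM of Itgav and no UMI of Itga4. Itgal, the LFA-1 alpha chain, was at 213 CPM in monocytes and macrophages and 83.5 CPM in T cells but at 0.298 CPM in microglial cells. Itga4, the VLA-4 alpha chain, was at 391 CPM in monocytes and macrophages, 275 CPM in B cells, 250.3 CPM in pericytes and 214 CPM in T cells, which overlapped in this order. Microglial cells held the lowest mean Itga4 level of the 14 types, at 1.54 CPM (1.373 to 1.667). Single libraries of astrocytes (0.9667 and 1.061 CPM), choroid plexus epithelial cells (1.144 CPM) and ciliated ependymal cells (1.332 CPM) lay lower. Thus the 2 alpha chains that separate blood leukocytes from microglia were both near 0 in microglial cells of sham + WT brains.

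**Figure D1:**
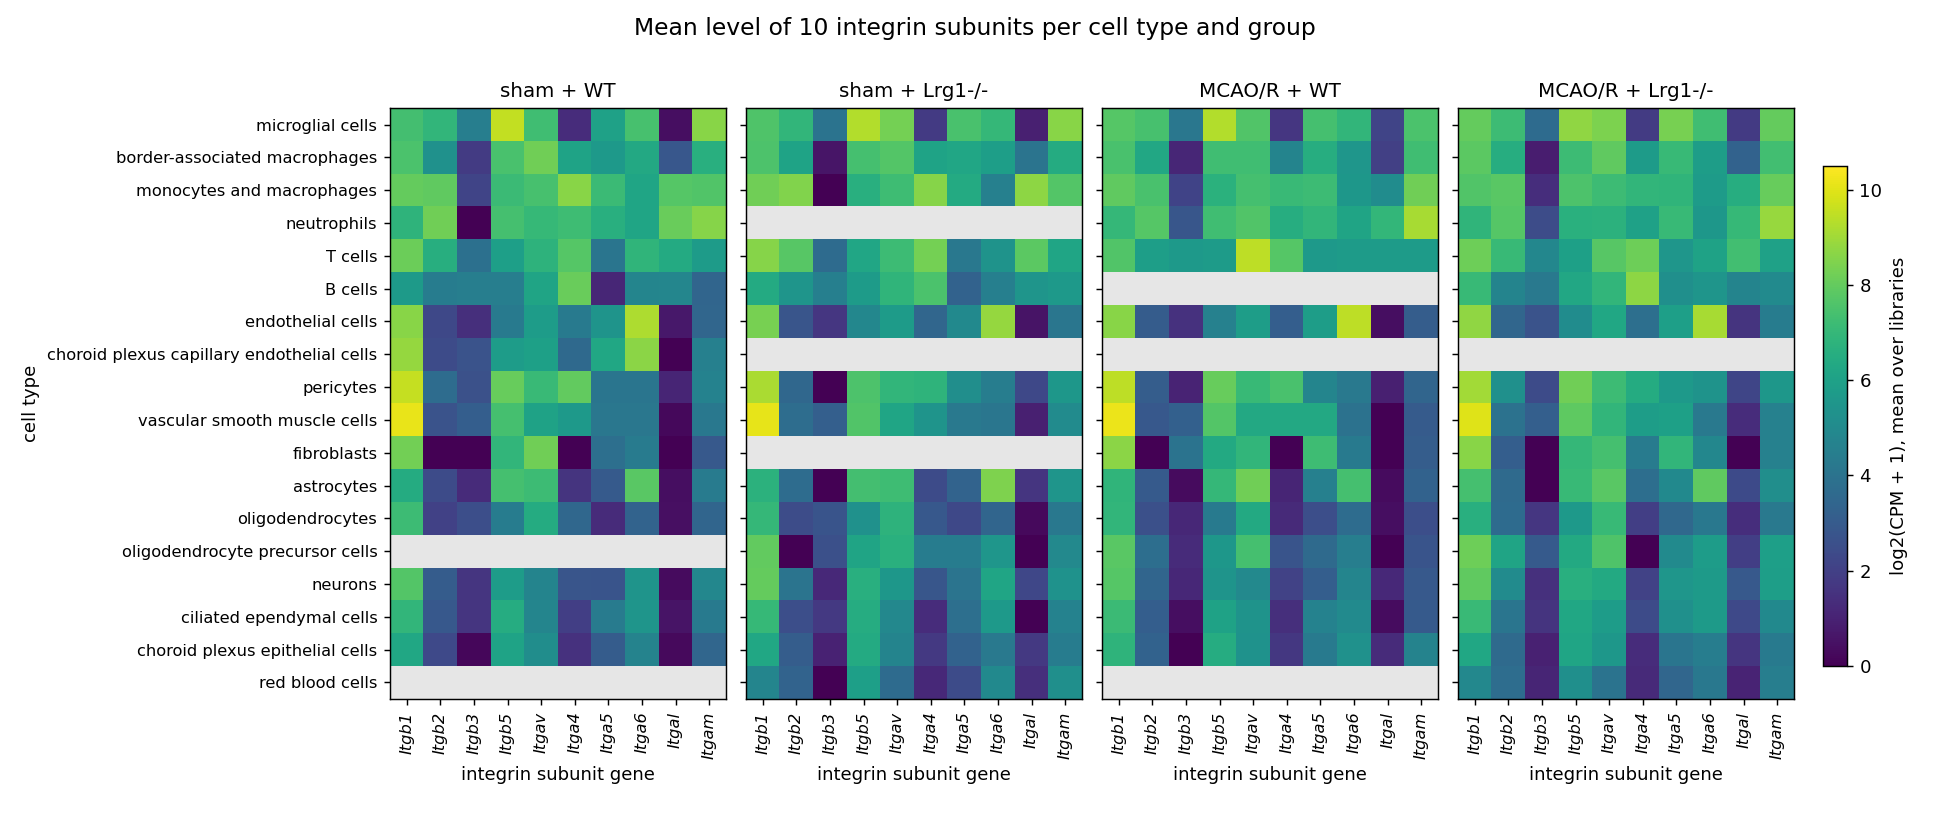
Mean level of the 10 subunits as log2(CPM + 1), by cell type (rows) and subunit (columns), 1 panel per group. Grey marks a cell type with no library of at least 20 cells in that group. In sham + WT, Itgam and Itgb5 stand highest in microglial cells (395 and 743 CPM), Itga6 in endothelial cells (594 CPM) and Itgb1 in vascular smooth muscle cells (1129 CPM).

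The genotype was first compared in the sham groups. Over 12 cell types, 106 pairs of member and cell type passed the filter on low counts and were tested. Of these, 11 pairs (10.4%) were called, 7 higher and 4 lower in Lrg1-/-, against 8.93% of all gene and cell type pairs tested, and the members' share was near that background. Calls came from the edgeR quasi-likelihood test, with a log2 difference beyond 0.36 and an adjusted p (Benjamini-Hochberg, over all genes of the cell type) below 0.05. No member was called in border-associated macrophages, ciliated ependymal cells, monocytes and macrophages, neurons, pericytes or vascular smooth muscle cells. In this contrast 34 of the 106 pairs had an unadjusted p below 0.05. The share of all pairs at that p is not given, so such counts, here and below, are no result about the members. The number of calls was 7 without sham + WT replicate 2 or 3 and 6 without sham + Lrg1-/- replicate 2, where the shares over all pairs fell as well, to 4.74%, 4.95% and 4.76%.

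In sham microglial cells 3 of 10 members were called, where 22.5% of all genes were called. Itga5 was at 58.4, 66.6 and 62.6 CPM in the sham + WT libraries and at 231, 154 and 157 CPM in the sham + Lrg1-/- libraries. Itgav was at 144, 152 and 171 CPM in sham + WT and at 329, 284 and 328 CPM in sham + Lrg1-/-. For both genes every Lrg1-/- library lay above every WT library, and the differences were 1.53 ± 0.28 (log2, SE; adjusted p = 0.00201) for Itga5 and 1.01 ± 0.20 (adjusted p = 0.00362) for Itgav. The microglial sums were of unequal size. They held 3562 to 4511 cells and 38418143 to 41867907 UMIs in sham + WT. In sham + Lrg1-/- they held 284 to 1050 cells and 2375637 to 5890744 UMIs. The part of free RNA in the microglial differences, here and after MCAO/R, was not tested. Itgb3 was at 22.9, 18.9 and 23.5 CPM in sham + WT and at 15.8, 13.4 and 15.7 CPM in sham + Lrg1-/-, lower by -0.54 ± 0.15 (adjusted p = 0.0205). This call was lost without sham + WT replicate 1 (-0.50) or replicate 3 (-0.48), or without sham + Lrg1-/- replicate 2 (-0.48). Itgam did not differ beyond its spread, at 389, 389 and 408 CPM against 374, 399 and 402 CPM (-0.01, adjusted p = 0.972). Microglial cluster 9, which was led by Casp4 and Arhgap22, held 11.4% of sham + WT and 21% of sham + Lrg1-/- microglial cells. Within that cluster alone, Itgav was higher by 1.52 (adjusted p = 0.000305) and Itga5 by 1.37 (adjusted p = 2.6e-05) in sham + Lrg1-/-. Clusters 1 and 16 held most sham microglial cells and were not fitted alone. Their shares were 53.8% and 25.3% in sham + WT and 45.5% and 17.8% in sham + Lrg1-/-.

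After MCAO/R, 96 pairs over 11 cell types were tested between genotypes and 24 (25%) were called, 21 higher and 3 lower in Lrg1-/-, against 14.6% of all pairs tested. The members were chosen with earlier results of these data known. Their share here and in the other contrasts is therefore a description and no test of integrins as a family. The unadjusted p was below 0.05 in 47 pairs. Without MCAO/R + WT replicate 2, 8 of 99 pairs were called (background 6.2%), and within the libraries of these groups alone 12 of 96 were (background 6.89%). No member was called in ciliated ependymal cells, monocytes and macrophages or neutrophils, and T cells had too few MCAO/R + WT libraries for a test.

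In microglial cells after MCAO/R, 4 of 10 members were called against 20.1% of all genes, with a median difference of 0.336 over the members and 0.0839 over all genes. Itgav was at 267 and 128 CPM in the MCAO/R + WT libraries and at 364, 341 and 339 CPM in the MCAO/R + Lrg1-/- libraries, a difference of 0.82 ± 0.23 (adjusted p = 0.0231). Itga5 was at 248 and 90.4 CPM in MCAO/R + WT and at 305, 354 and 321 CPM in MCAO/R + Lrg1-/-, a difference of 0.95 ± 0.31 (adjusted p = 0.0464). The MCAO/R + WT libraries stood far apart in both genes, yet all Lrg1-/- libraries lay above them. Without MCAO/R + WT replicate 2 neither call held, at 0.38 for Itgav and 0.39 for Itga5. The Itga5 call was also lost in each fit without 1 of 8 other libraries, at 0.89 to 0.99.

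Itgb5 and Itgb3, beta partners of alphav, were lower in the same cells. Itgb5 was at 502 and 766 CPM in MCAO/R + WT and at 417, 382 and 483 CPM in MCAO/R + Lrg1-/-, lower by -0.57 ± 0.17 (adjusted p = 0.0283). This call was lost without MCAO/R + WT replicate 2 (-0.24) and without MCAO/R + Lrg1-/- replicate 1 (-0.56) or 2 (-0.49). Itgb3 was at 16.3 and 17.9 CPM against 10.8, 11.9 and 12.1 CPM, lower by -0.54 ± 0.16 (adjusted p = 0.0261). It was lost without MCAO/R + WT replicate 2 (-0.48) or MCAO/R + Lrg1-/- replicate 2 (-0.56). Itgb3 and Itgb5 thus differed in the opposite direction to Itgav.

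Microglial clusters contributed unequally to these sums. Cluster 9 held 26.8% of MCAO/R + WT and 5.31% of MCAO/R + Lrg1-/- microglial cells, and cluster 11, led by Lpl and Spp1, held 18.8% and 35.2%. Within single clusters, Itgav was higher in MCAO/R + Lrg1-/- in cluster 3 (1.11, adjusted p = 0.000335), cluster 7 (1.13, adjusted p = 0.00431) and cluster 9 (1.25, adjusted p = 0.00292). Itga5 was higher by 1.54 (adjusted p = 4.8e-05), 0.89 (adjusted p = 0.0316) and 1.64 (adjusted p = 1.1e-05) in the same clusters. In cluster 11 the differences were 0.04 for Itgav and 0.26 for Itga5, and no member was called there. Itgam was higher in cluster 3 (1.39, adjusted p = 0.000194) and cluster 9 (1.27, adjusted p = 0.000369), whereas over all microglial cells it differed by 0.50 (adjusted p = 0.194). Of these 4 clusters, Itgb5 was called lower in cluster 9 alone (-0.44, adjusted p = 0.0251), and Itgb3 was called in none (-0.49 to -0.09).

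**Figure D2:**
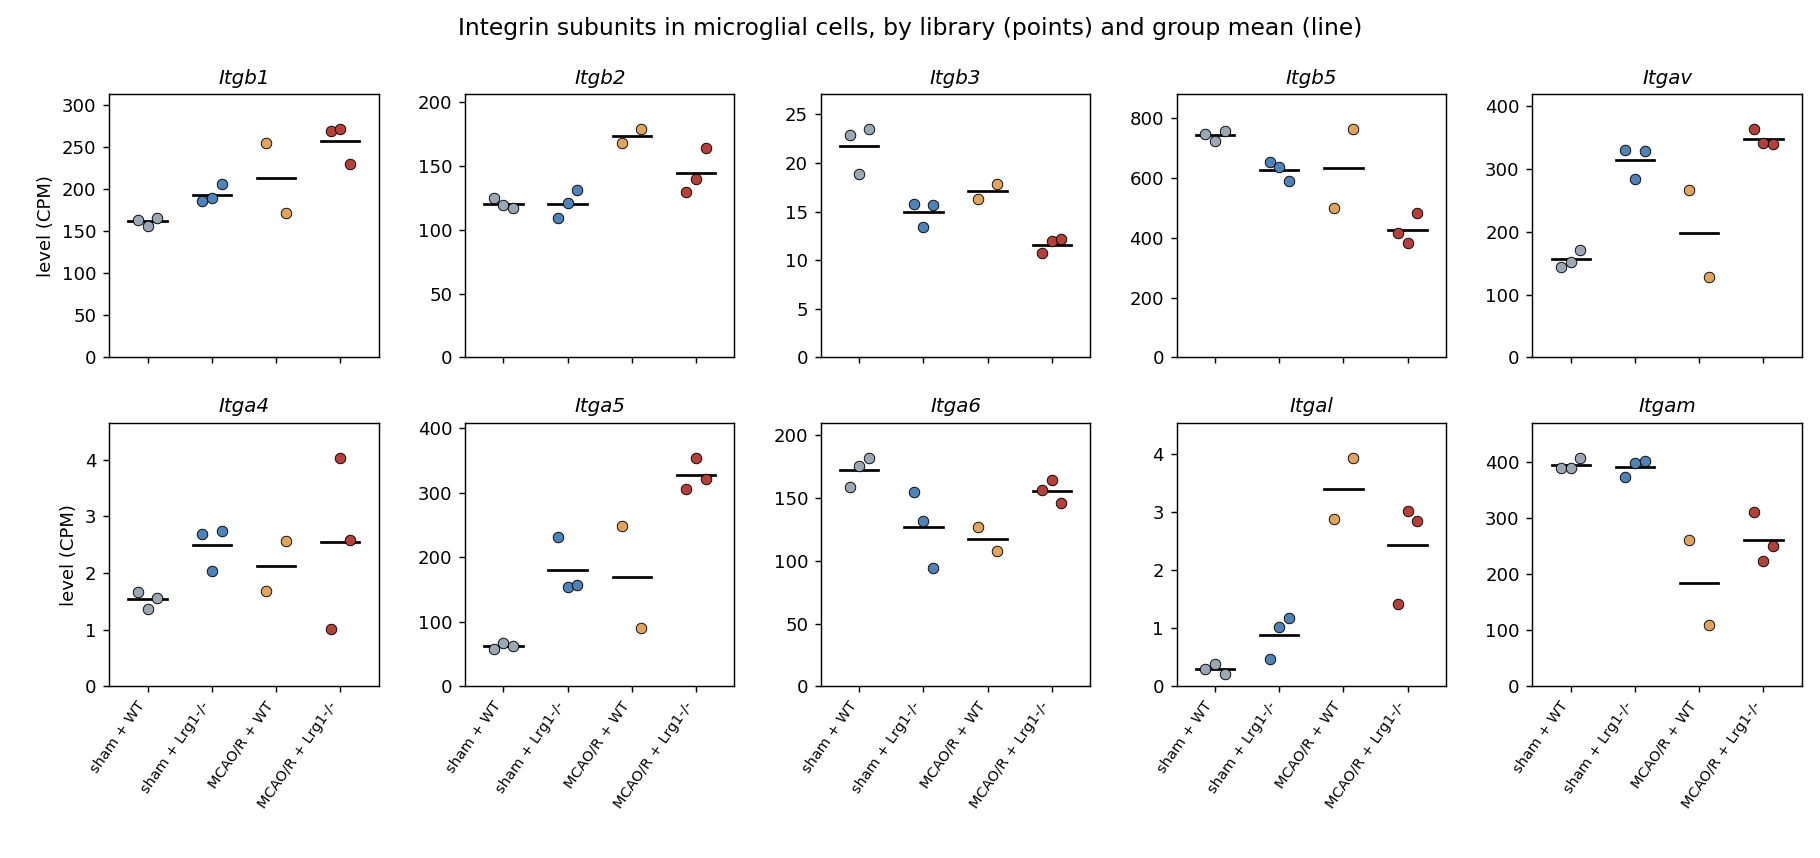
Level in microglial cells (CPM, linear axes from 0) of each subunit, 1 point per library and a line at the group mean, in 1 panel per gene. Itga5 and Itgav sit higher in both Lrg1-/- groups than in sham + WT, Itgam sits between 389 and 408 CPM in sham + WT and at 260.1 and 110.2 CPM in MCAO/R + WT, and the MCAO/R + WT points lie far apart for Itgav, Itga5 and Itgb5.

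Surgery was then compared with sham within each genotype. In WT mice 20 of 87 tested pairs over 10 cell types were called (23%; 9 higher and 11 lower after MCAO/R) against 11.9% of all pairs, with 33 pairs at an unadjusted p below 0.05. The calls numbered 12 without sham + WT replicate 2, 13 without sham + WT replicate 3 and 12 without MCAO/R + WT replicate 1, against 8.31%, 8.08% and 6.57% of all pairs. Microglial cells had 5 of 10 members called against 21.3% of all genes. Itgam, the CD11b gene, was at 389, 389 and 408 CPM in sham + WT and at 260.1 and 110.2 CPM in MCAO/R + WT, lower by -1.09 ± 0.27 (adjusted p = 0.01). Itgb2 was at 124.9, 119.6 and 116.9 CPM in sham and at 168 and 179 CPM after MCAO/R, higher by 0.53 ± 0.13 (adjusted p = 0.0104). In the sums over all microglial cells the CD11b alpha chain and its beta partner therefore moved in opposite directions, and the groups overlapped in neither. These sums set different clusters side by side. Cluster 16 held 25.3% of sham + WT and 0.964% of MCAO/R + WT microglial cells, and cluster 1 fell as given below. The part of this change in the 2 differences was not tested. Itga5 was higher by 1.44 ± 0.30 (adjusted p = 0.00394), but without MCAO/R + WT replicate 1 the difference was 0.53 and was not called. Within single clusters the sign of Itga5 was opposite, at -0.39 in cluster 3 (adjusted p = 0.225), -0.46 in cluster 7 (adjusted p = 0.424) and -0.57 in cluster 9 (adjusted p = 0.0213). The difference in cluster 9 met the rule for a call. Cluster 1 fell from 53.8% of sham + WT to 1.26% of MCAO/R + WT microglial cells, so the rise of Itga5 holds for the sum over clusters and not within those 3. Itga6 was lower by -0.55 ± 0.17 (adjusted p = 0.0382), a call lost without any 1 of the 5 WT libraries (-0.67 to -0.43).

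Itgal rose in microglial cells from a very low level. It had 11, 15 and 8 UMIs in the sham + WT libraries and 142 and 160 UMIs in the MCAO/R + WT libraries, which is 0.296, 0.381 and 0.216 CPM against 2.88 and 3.95 CPM. The difference was 3.49 ± 0.37 (adjusted p = 3.5e-05). Microglial cells held 17.7, 27.8 and 13.8 Itgal UMIs per 100 Itga4 UMIs in sham + WT and 171 and 154 in MCAO/R + WT, where monocytes and macrophages held 18.7 and 28.3 and neutrophils 93.9 and 309. Whether RNA of other leukocytes contributed to the microglial sums was not tested.

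In Lrg1-/- mice surgery gave 17 calls among 112 pairs over 13 cell types (15.2%; 12 higher and 5 lower) against 10.9% of all pairs, and 55 pairs had an unadjusted p below 0.05. Without sham + Lrg1-/- replicate 1, 2 or 5 the calls were 6, 10 and 11, and without MCAO/R + Lrg1-/- replicate 2 they were 8, against 6.96%, 6.98%, 8.98% and 7.06% of all pairs. Microglial cells had 4 of 10 members called against 35.6% of all genes, a share near that background. Their clusters differed with surgery, since clusters 1 and 16 held 45.5% and 17.8% of sham + Lrg1-/- but 0.277% and 0.164% of MCAO/R + Lrg1-/- microglial cells, and cluster 11 went from 0.2% to 35.2%. Itga5, at 231, 154 and 157 CPM after sham and 305, 354 and 321 CPM after MCAO/R, was higher by 0.85 ± 0.27 (adjusted p = 0.0268). That call was lost without sham + Lrg1-/- replicate 2 (0.69) or 5 (0.76) or MCAO/R + Lrg1-/- replicate 2 (0.79). Itgb5 was at 656, 637 and 591 CPM after sham and at 417, 382 and 483 CPM after MCAO/R, lower by -0.56 ± 0.15 (adjusted p = 0.011). Itgal was higher by 1.67 ± 0.45 (adjusted p = 0.0113), with 3, 5 and 3 UMIs after sham and 7, 106 and 102 after MCAO/R, and was not called without sham + Lrg1-/- replicate 1 (1.26). Itgb1 was higher by 0.41 ± 0.14 (adjusted p = 0.0363) and lost its call in each of 8 fits that left out 1 library, at 0.34 to 0.45. Within clusters 3 and 9 neither Itga5 (0.14 and -0.30) nor Itgb5 (-0.34 and -0.20) was called.

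The interaction of genotype and surgery was tested in 87 pairs over 10 cell types, and 3 (3.45%) were called, against 2.08% of all pairs tested. An unadjusted p below 0.05 was found in 17 pairs. The calls ranged from 0 to 6 over the fits without 1 library, with 6 without MCAO/R + WT replicate 1, where the share of all pairs was also the highest (3.28%; 0.706% in the lowest such fit). In microglial cells 1 member, Itga6, was called, against 8.54% of all genes. Its level was 159, 175 and 182 CPM in sham + WT, 155, 132 and 94.5 CPM in sham + Lrg1-/-, 127 and 108 CPM in MCAO/R + WT and 156, 164 and 146 CPM in MCAO/R + Lrg1-/-. The change with surgery differed between genotypes by 0.83 ± 0.23 (adjusted p = 0.0452). It was lost in 8 of the 11 fits that left out 1 library, at 0.66 to 0.88.

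**Figure D3:**
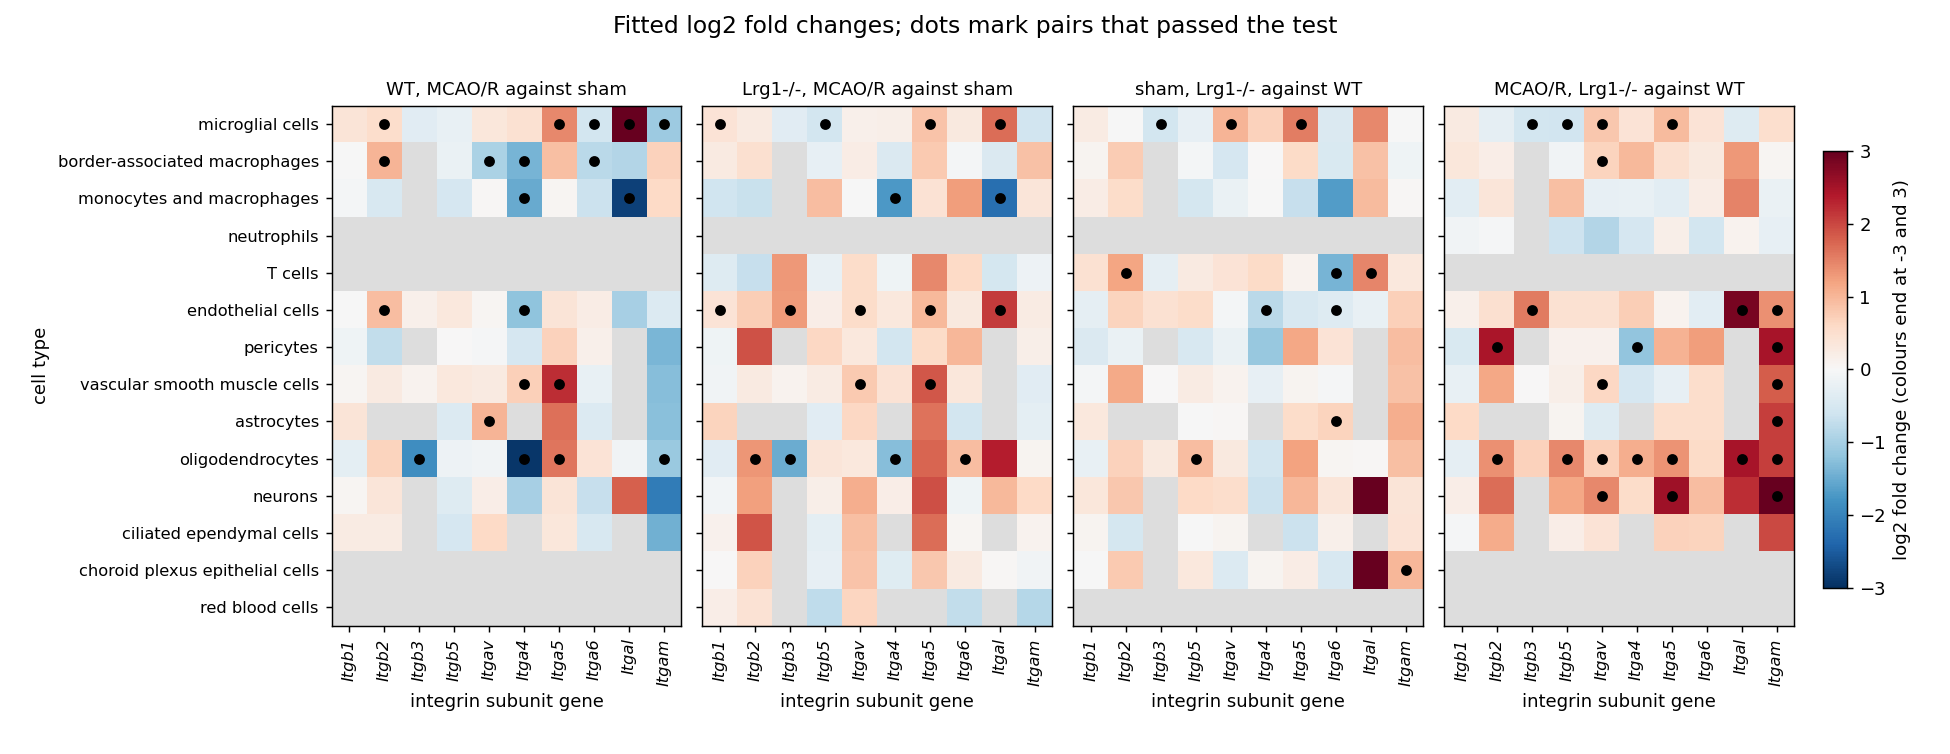
Log2 difference of each subunit (columns) in each cell type (rows). From left to right the panels show the surgery contrasts in WT and Lrg1-/- and the genotype contrasts in sham and MCAO/R. Colours end at -3 and 3, grey cells were not tested, and dots mark called pairs. Dots number 20, 17, 11 and 24 in this order, and oligodendrocytes hold 7 of the 24 between genotypes after MCAO/R.

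Endothelial cells held the highest Itga6 level of the cell types in sham + WT brains. In sham mice 2 of 10 members were called between genotypes, both lower in Lrg1-/-, against 13.9% of all genes. Itga6 was at 590.0, 605 and 587 CPM in sham + WT and at 408, 463 and 501 CPM in sham + Lrg1-/-, lower by -0.38 ± 0.10 (adjusted p = 0.0273), with no overlap. This call was lost without any of the sham + WT libraries and without sham + Lrg1-/- replicate 1 or 2, at -0.39 to -0.31. Itga4 was at 17.2, 18.4 and 19.3 CPM in sham + WT and at 12.3, 11.0 and 7.11 CPM in sham + Lrg1-/-, lower by -0.80 ± 0.25 (adjusted p = 0.0471), and was not called in any fit without 1 of these 6 libraries (-0.96 to -0.65). Haemoglobin in these cells summed to 357.5 to 579 CPM in sham + WT and 15580 to 25660 CPM in sham + Lrg1-/-. Choroid plexus markers summed to 310.3 to 580.2 and 2766 to 4002 CPM, and the part of such RNA was not tested.

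After MCAO/R, 3 of 10 members were called in endothelial cells, all higher in Lrg1-/-, against 26.8% of all genes. Itgb3, the beta chain of integrins of platelets and endothelium, was at 2.24 and 1.44 CPM in MCAO/R + WT and at 6.94, 5.55 and 3.96 CPM in MCAO/R + Lrg1-/-, a difference of 1.57 ± 0.34 (adjusted p = 0.00439). Itgav was not called here, while the subunit Itga2b was called higher, as given below. Itgal was at 0.325 and 0.270 CPM (10 and 6 UMIs) against 1.35, 2.85 and 1.86 CPM (7, 94 and 8 UMIs; 2.85 ± 0.51, adjusted p = 0.00159), and Itgam at 11.4 and 3.74 CPM against 19.9, 16.9 and 23.8 CPM (1.36 ± 0.33, adjusted p = 0.00905). All 3 lay at low levels, and the genotype groups overlapped in none. In these cells haemoglobin summed to 319.6 to 531 CPM in MCAO/R + WT and 17160 to 29450 CPM in MCAO/R + Lrg1-/-. Choroid plexus markers summed to 144 to 260.5 and 2158 to 3438 CPM. The part of blood, platelet or choroid plexus RNA in these calls was not tested. Leukocytes with far more Itgal took larger shares of the MCAO/R + Lrg1-/- cells: monocytes and macrophages made up 0.399% of MCAO/R + WT and 3.11% of MCAO/R + Lrg1-/- cells, neutrophils 0.493% and 3.03%, and T cells 0.169% and 1.57%. These shares pool the mice and rest mainly on replicates 2 and 5: MCAO/R + Lrg1-/- replicate 1 had 45, 15 and 48 of these cells among 6052. Their part in the endothelial and oligodendrocyte Itgal levels was not tested. Itgb5, another partner of alphav, was at 22.7 and 24.6 CPM against 27.0, 25.3 and 47.7 CPM and did not pass the test (0.45, adjusted p = 0.146). The laminin chain Itga6 was at 756 and 627 CPM against 578, 532 and 561 CPM and was not called.

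Endothelial cells after MCAO/R fell mostly into cluster 5, led by Lcn2, Lrg1 and Ackr1, and cluster 12, led by Doc2b and Xdh. Cluster 5 held 40.4% of MCAO/R + WT and 76.2% of MCAO/R + Lrg1-/- endothelial cells, and cluster 12 held 57.9% and 22.1%. Within these clusters alone no member was called. Itgb3 differed by 1.27 in cluster 5 (adjusted p = 0.133) and 1.43 in cluster 12 (adjusted p = 0.0524), and Itgam by 1.21 (adjusted p = 0.0576) and 1.10 (adjusted p = 0.065).

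With surgery, WT endothelial cells had 2 of 10 members called against 21.5% of all genes. Itga4 fell from 17.2, 18.4 and 19.3 CPM to 8.70 and 6.98 CPM (-1.22 ± 0.27, adjusted p = 0.00541), and Itgb2 was higher by 0.92 ± 0.25 (adjusted p = 0.019) at 3.72 to 4.01 CPM after sham and 8.44 and 5.99 CPM after MCAO/R. The Itgb2 call was lost without any sham + WT library or MCAO/R + WT replicate 1, at 0.64 to 0.96. The surgery contrast set different clusters side by side: clusters 15, 23 and 26 held 50.9%, 24.1% and 17.9% of sham + WT endothelial cells and 0.477%, 0.108% and 1.08% of MCAO/R + WT ones, which lay in clusters 5 and 12. Within cluster 12 the WT difference of Itga4 was -0.58 (adjusted p = 0.177). In Lrg1-/- clusters 15, 23 and 26 held 25.1%, 27.6% and 33.5% after sham and 0.238%, 0.529% and 0.978% after MCAO/R. Lrg1-/- endothelial cells had 5 of 10 members called, all higher after MCAO/R, against 23.6% of all genes. Itga5 was at 29.2, 31.2 and 32.1 CPM after sham and at 45.3, 72.1 and 61.5 CPM after MCAO/R (0.97 ± 0.19, adjusted p = 0.00258), with no overlap. Itgb1 was at 315, 339 and 327 CPM and then at 434, 499 and 377 CPM (0.42 ± 0.12, adjusted p = 0.0219). Itgav (0.56, adjusted p = 0.0321), Itgb3 (1.27, adjusted p = 0.0143) and Itgal (2.10, adjusted p = 0.0116) were the other calls. Those of Itgb1, Itgb3, Itgav and Itgal were lost without MCAO/R + Lrg1-/- replicate 2, at 0.31, 1.27, 0.37 and 1.62. Itgb1 was also lost without any sham + Lrg1-/- library (0.39 to 0.45), Itgb3 without sham + Lrg1-/- replicate 1 (1.10) and Itgav in 4 further fits without 1 library (0.47 to 0.56). In Lrg1-/- mice Itga5 differed with surgery by 1.05 within cluster 5 (adjusted p = 0.063) and by -0.0032 within cluster 12 (adjusted p = 0.998). With unnamed clusters added to their best-scoring cell type, the calls of Itgb2 in WT (0.25) and of Itgal (0.99) and Itgav (0.59) in Lrg1-/- were lost.

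The interaction was called for 2 of 10 members in endothelial cells against 3.12% of all genes. The change of Itga4 with surgery differed by 1.54 ± 0.38 (adjusted p = 0.046): its level was lower after MCAO/R in WT, as given above, and at 12.3, 11.0 and 7.11 CPM after sham and 20.4, 10.7 and 9.08 CPM after MCAO/R in Lrg1-/-. That of Itgal differed by 3.08 ± 0.76 (adjusted p = 0.0473), at levels of at most 2.85 CPM, with 4, 6 and 1 UMIs in sham + Lrg1-/- and 6, 9 and 27 UMIs in sham + WT. Each was lost in 8 of the 11 fits that left out 1 library, at 1.39 to 1.73 for Itga4 and 2.42 to 3.36 for Itgal, and both were lost with unnamed clusters added (1.28 and 1.95).

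**Figure D4:**
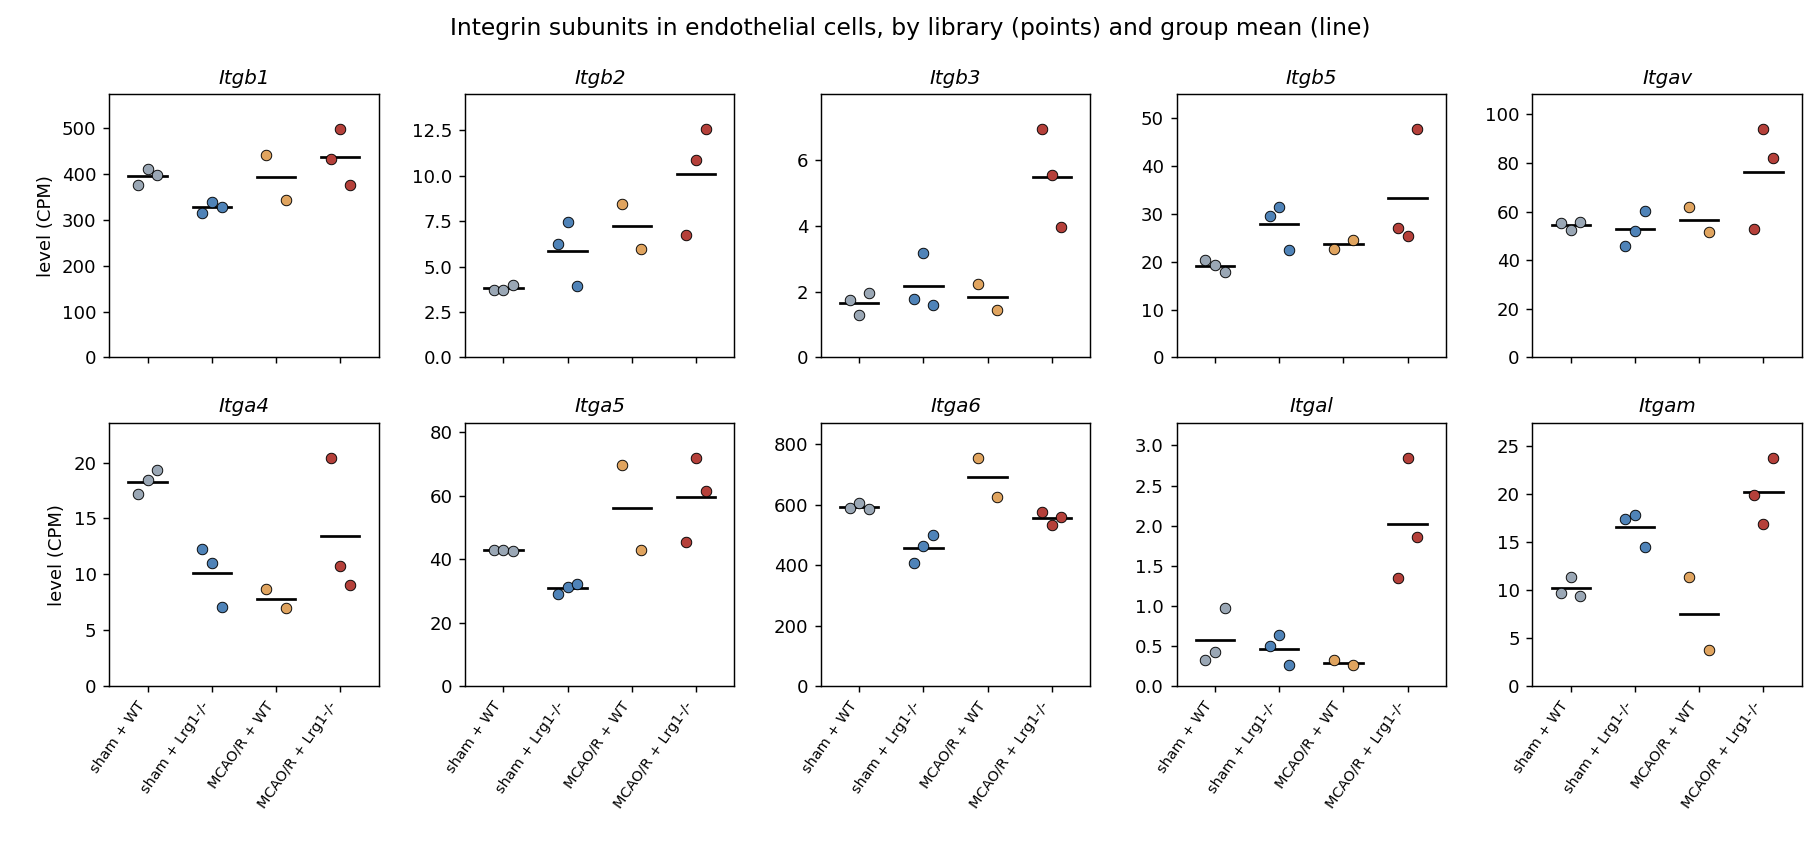
Level in endothelial cells (CPM, linear axes from 0) of each subunit, 1 point per library and a line at the group mean, in 1 panel per gene. Itga6 sits between 587 and 605 CPM in sham + WT and between 408 and 501 CPM in sham + Lrg1-/-, and Itgb3 sits higher in MCAO/R + Lrg1-/- (3.96 to 6.94 CPM) than in the other groups.

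Oligodendrocytes, the myelin-forming cells, had 1 of 10 members called between genotypes after sham (background 9% of all genes) and 7 of 10 after MCAO/R (background 29.1%), where the median difference was 1.23 over the members and -0.0143 over all genes. Itgb5 was at 22.7, 19.6 and 18.6 CPM in sham + WT and at 38.9, 40.8 and 36.0 CPM in sham + Lrg1-/- (0.93 ± 0.16, adjusted p = 0.00326). After MCAO/R it was at 16.9 and 19.8 CPM in WT and at 46.7, 41.6 and 59.3 CPM in Lrg1-/- (1.43 ± 0.16, adjusted p = 3.8e-05). Itgav was at 77.1 and 85.4 CPM in MCAO/R + WT and at 159.8, 124 and 122 CPM in MCAO/R + Lrg1-/- (0.72 ± 0.14, adjusted p = 0.00219). In all of these the genotypes did not overlap. The myeloid chains Itgam (2.08, adjusted p = 0.000485) and Itgb2 (1.36, adjusted p = 0.00662) were also higher in MCAO/R + Lrg1-/-, as were Itgal (2.48, adjusted p = 0.00657; 5 and 11 UMIs in WT and 1, 19 and 26 UMIs in Lrg1-/-), Itga4 (1.10, adjusted p = 0.0205) and Itga5 (1.36, adjusted p = 0.0475). The Itga5 groups overlapped, and its call was lost in 9 of the 11 fits without 1 library, at 0.71 without MCAO/R + WT replicate 2 and up to 1.36 in the others. That of Itgal was not called without the same library (2.37), and that of Itga4 was not called without either MCAO/R + WT library or MCAO/R + Lrg1-/- replicate 2 (0.95 to 1.28).

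Oligodendrocyte cluster 6 held 80.7% of MCAO/R + WT and 36.6% of MCAO/R + Lrg1-/- oligodendrocytes, and cluster 14, led by Il33 and Gpd1, held 19.3% and 63.1%. Itgb5, Itgav and Itgam were called within each cluster alone: Itgb5 by 1.28 in cluster 6 and 1.52 in cluster 14, Itgav by 0.73 and 0.97, and Itgam by 1.72 and 2.66. Itgb2 was called in cluster 14 (1.97) and not in cluster 6 (0.97, adjusted p = 0.111), and Itga5 was called in neither (1.28, adjusted p = 0.0627, and 1.13, adjusted p = 0.228). Itga4 and Itgal were not tested within clusters.

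With surgery, WT oligodendrocytes had 4 of 10 members called against 26% of all genes. Itga4 was at 11.3, 10.3 and 9.84 CPM after sham and at 1.20 and 1.51 CPM after MCAO/R (-2.92 ± 0.30, adjusted p = 5.7e-06). Itgb3 was at 4.41, 4.51 and 5.27 CPM and then at 1.27 and 1.29 CPM (-1.87 ± 0.29, adjusted p = 0.000202). Both low-level chains fell without overlap. Here too the clusters differed, with cluster 19 going from 79% of sham + WT to 0.0326% of MCAO/R + WT oligodendrocytes and cluster 6 from 7.47% to 80.7%; in Lrg1-/- cluster 19 went from 40.1% to 0.275% and cluster 14 from 21% to 63.1%. Itgam fell by 1.11 on the log2 scale (adjusted p = 0.0194), a call lost without sham + WT replicate 1 (-0.96) or MCAO/R + WT replicate 2 (-0.59). Itga5 rose by 1.60 (adjusted p = 0.0298), a call lost without any sham + WT library (1.43 to 1.78) or MCAO/R + WT replicate 1 (0.57). In Lrg1-/- oligodendrocytes 4 of 10 were called against 16.3% of all genes: Itgb3 (-1.49, adjusted p = 0.00703) and Itga4 (-1.27, adjusted p = 0.0176) lower, and Itgb2 (1.33, adjusted p = 0.027) and Itga6 (0.92, adjusted p = 0.0439) higher. Itga6 was lost in 7 fits that left out 1 library (0.69 to 0.98) and turned to -0.01 (adjusted p = 0.996) with predicted doublets kept, and Itgb2 in 5 (0.95 to 1.64). Itgb3 (-1.25) and Itga4 (-0.81) were not called without sham + Lrg1-/- replicate 1. With unnamed clusters added, none of these 4 was called in Lrg1-/- (-0.57, -0.55, 1.49 and 1.05 for Itgb3, Itga4, Itgb2 and Itga6), nor were Itgam (-1.78) and Itga5 (1.19) in WT or Itgb5 between the sham groups (0.83).

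Free RNA in a suspension can add myeloid transcripts to other cells, so the 5 microglial genes P2ry12, Tmem119, Cx3cr1, Siglech and Gpr34 were followed outside microglia. In oligodendrocytes their summed level was 108 to 143 CPM in sham + WT, 214 to 337 CPM in sham + Lrg1-/-, 39.2 to 51.7 CPM in MCAO/R + WT and 141 to 247 CPM in MCAO/R + Lrg1-/-, and none of the 5 was at 0. As a share of the microglial level, the median tracer stood at 2.26%, 6.56%, 2.75% and 7.44%. In endothelial cells the sums were 131 to 139.8, 187 to 304, 72.6 to 92.6 and 128 to 231 CPM in the same order of groups. The tracers were therefore higher in the Lrg1-/- groups of both cell types. Haemoglobin in oligodendrocytes summed to 12.95 to 21.67, 7399 to 38820, 14.49 to 18.05 and 9517 to 38280 CPM in that order of groups. Choroid plexus markers there summed to 1941 to 2270, 4544 to 5928, 814.9 to 824 and 3806 to 5043 CPM. The reading below covers microglial RNA alone.

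Read against these tracers, 6 of the 56 calls outside microglial cells over the genotype and surgery contrasts had every library at or below the highest tracer share. Of the 56, 16 were calls of Itgal or Itga4, which lay under 5 CPM in sham + WT microglial cells and so cannot be read as a share of the microglial level, which leaves 6 of 40. After MCAO/R, these were endothelial Itgam and oligodendrocyte Itgam, Itgb2 and Itga5 between genotypes. In the sham groups it was Itgam in choroid plexus epithelial cells. That call was 1 of 9 tested members, against 17.2% of all genes (1.0, adjusted p = 0.0307), and was lost without sham + WT replicate 2 or 3 or sham + Lrg1-/- replicate 2, at 0.73 to 1.03. With surgery it was oligodendrocyte Itgb2 in Lrg1-/- and no call in WT, where oligodendrocyte Itgam was at or below the highest tracer share in 4 of 5 libraries and oligodendrocyte Itga5 and endothelial Itgb2 in 3 of 5. With surgery in Lrg1-/-, oligodendrocyte Itga6 was at or below it in 4 of 6 libraries and vascular smooth muscle Itga5 in 3 of 6. Oligodendrocyte Itgav lay above the tracers in every library after MCAO/R, at 28.9% to 66.7% of its microglial level against 2.3% to 15.4% for the tracers. Oligodendrocyte Itgb5 was at or below the highest tracer share in 4 of 6 sham libraries and 3 of 5 MCAO/R libraries. The part of free RNA in the other calls was not tested.

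**Figure D5:**
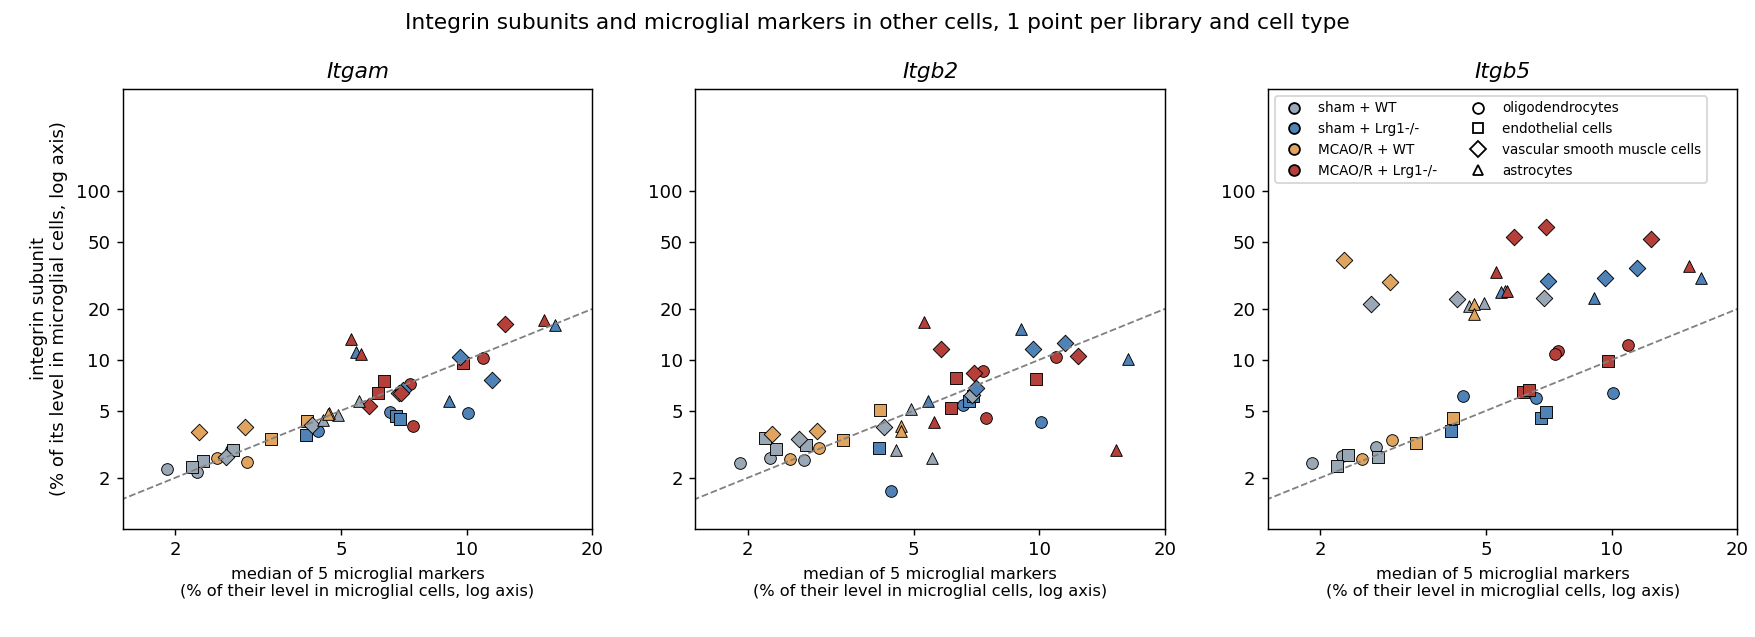
Itgam, Itgb2 and Itgb5 in astrocytes, oligodendrocytes, vascular smooth muscle cells and endothelial cells as a percentage of their level in microglial cells of the same library (vertical axis), against the median of the 5 microglial marker genes (horizontal axis), both on log axes, with 1 point per library coloured by group. The dashed line marks equal percentages, and points near it are integrin levels no higher than those of the markers. In oligodendrocytes the marker median over groups goes from 2.26% in sham + WT to 7.44% in MCAO/R + Lrg1-/-.

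Mural cells, which wrap vessels, were followed next. In vascular smooth muscle cells after MCAO/R, 2 of 9 tested members were called between genotypes against 12.4% of all genes. Itgav was at 88.4 and 69.9 CPM in WT and at 98.9, 146 and 110.0 CPM in Lrg1-/- (0.61 ± 0.17, adjusted p = 0.0294), a call lost without either MCAO/R + WT library (0.80 and 0.45) or MCAO/R + Lrg1-/- replicate 2 (0.44). Itgam was at 9.74 and 4.43 CPM against 16.5, 14.3 and 40.5 CPM (1.82 ± 0.53, adjusted p = 0.0405) and was at or below the highest tracer share in 4 of 5 libraries; it was lost in 6 fits that left out 1 library, among them MCAO/R + Lrg1-/- replicate 5 (1.10). Itgb1, which was highest in these cells, lay between 917 and 1191 CPM in all 11 libraries and was not called. With surgery in WT, 2 of 9 were called against 10.1% of all genes: Itga5 rose from 19.4, 15.2 and 16.4 CPM to 124 and 34.1 CPM (2.20 ± 0.48, adjusted p = 0.0117), and Itga4 from 47.8, 40.0 and 60.1 CPM to 79.9 and 81.2 CPM (0.70 ± 0.16, adjusted p = 0.0154). Itga5 was not called without MCAO/R + WT replicate 1 (1.01) or sham + WT replicate 2 (2.13), nor Itga4 without sham + WT replicate 2 (0.57) or either MCAO/R + WT library (0.71 and 0.70). In Lrg1-/- mice 2 of 9 were called against 10.1% of all genes, Itga5 (1.87, adjusted p = 0.0255) and Itgav (0.79, adjusted p = 0.00586), of which Itga5 was lost in 4 fits without 1 library (1.38 to 2.06). With unnamed clusters added, none of these 6 calls in vascular smooth muscle cells held (0.51 to 2.29).

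In pericytes after MCAO/R, 3 of 8 tested members were called against 13.2% of all genes. Itga4 was at 159 and 194 CPM in WT and at 142, 81.0 and 39.1 CPM in Lrg1-/-, lower by -1.18 ± 0.31 (adjusted p = 0.02), and this was not called without MCAO/R + WT replicate 2 (-1.03) or MCAO/R + Lrg1-/- replicate 2 (-1.23). Itgam (2.48, adjusted p = 0.0108) and Itgb2 (2.44, adjusted p = 0.0101) were higher in Lrg1-/-, with overlapping groups and 4 of 5 libraries at or below the highest tracer share. Without MCAO/R + WT replicate 2 they were at 1.76 and 1.95 and not called, and neither was Itgb2 without MCAO/R + Lrg1-/- replicate 5 (1.73). A cluster named pericytes and led by Il11 and Ccl11 held 6.34% of MCAO/R + WT and 59.2% of MCAO/R + Lrg1-/- pericytes. It was split from the same larger cluster as the cells named fibroblasts. The fibroblast libraries held 0 Itga4 UMIs in MCAO/R + WT and 5 in MCAO/R + Lrg1-/-. The part of this cluster in the differences was not tested.

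Border-associated macrophages had 4 of 9 tested members called with surgery in WT, against 9.18% of all genes. Itgav, which was highest in these cells of the 14 types compared in sham + WT, was at 291, 328 and 285 CPM after sham and at 182 and 126 CPM after MCAO/R (-0.96 ± 0.20, adjusted p = 0.008). Itga4 (-1.39, adjusted p = 0.0204) and Itga6 (-0.81, adjusted p = 0.0198) were also lower, and Itgb2 was higher (1.03, adjusted p = 0.00841). In this contrast Itgav was not called without MCAO/R + WT replicate 2 (-0.72), Itgb2 without MCAO/R + WT replicate 1 (0.51) or sham + WT replicate 3 (0.93), and Itga4 and Itga6 each in 3 fits without 1 library (-1.39 to -1.08 and -0.80 to -0.61). Between genotypes after MCAO/R 1 of 9 was called against 20.9% of all genes: Itgav, at 182 and 126 CPM in WT and at 237, 271 and 229 CPM in Lrg1-/- (0.67 ± 0.21, adjusted p = 0.0314). That call was lost without MCAO/R + WT replicate 2 (0.42) or MCAO/R + Lrg1-/- replicate 2 (0.59). The microglial markers summed to 133.2 to 220.5 CPM in these WT and 300.7 to 613.8 CPM in these Lrg1-/- libraries. Choroid plexus markers summed to 120.3 to 326.6 and 5960 to 16540 CPM, and haemoglobin to 13.57 to 22.68 and 21770 to 30740 CPM. Itgav stood at 65.03% to 98.73% of its microglial level, against 5.677% to 37.7% for the tracers. The part of free RNA was not tested. Cluster 32 held 89.5% of MCAO/R + WT and 61.1% of MCAO/R + Lrg1-/- border-associated macrophages, and cluster 39 the rest.

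Monocytes and macrophages had lower levels of the blood leukocyte chains after MCAO/R in both genotypes, with 2 of 9 members called against 3.05% of all genes in WT and 2 of 9 against 8.87% in Lrg1-/-. Itga4 was at 291.5, 404 and 478 CPM in sham + WT and at 125 and 153 CPM in MCAO/R + WT (-1.51 ± 0.28, adjusted p = 0.0156). In Lrg1-/- it was at 396 and 376 CPM after sham and at 136, 132 and 87.6 CPM after MCAO/R (-1.72 ± 0.25, adjusted p = 0.00369). Itgal was lower by -2.80 (adjusted p = 0.0445) in WT, at 192, 242.4 and 203.9 CPM after sham and 23.32 and 43.19 CPM after MCAO/R. In Lrg1-/- it was lower by -2.27 (adjusted p = 0.0209), at 312 and 515.2 CPM and then at 169.9, 72.59 and 30.65 CPM. The libraries held only 21 and 64 of these cells in MCAO/R + WT and 30 and 67 in sham + Lrg1-/-. The cells formed a single cluster, and a changed mix of monocytes and macrophages was not tested. The WT calls were lost without 1 library in 3 fits for Itga4 (-1.64 to -1.34) and 8 for Itgal (-3.18 to -2.30), and that of Itgal in Lrg1-/- in 3 (-2.58 to -1.86).

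T cells were compared between genotypes in sham mice, where 3 of 10 members were called against 9.95% of all genes. Itgal, which T cells use to bind ICAM-1, was at 73.1, 90.7 and 86.9 CPM in sham + WT and at 245, 235 and 209 CPM in sham + Lrg1-/- (1.47 ± 0.20, adjusted p = 0.00115). Itgb2, its partner, was at 81.6, 100.3 and 104 CPM against 187, 250.1 and 212 CPM (1.18 ± 0.23, adjusted p = 0.00812). The LFA-1 chains were thus both higher in the Lrg1-/- mice, with no overlap. Itga6 went the other way, at 110.4, 108 and 133 CPM against 55.9, 27.8 and 40.3 CPM (-1.40 ± 0.24, adjusted p = 0.0039). The single T cell cluster had Gzma, Skap1, Nkg7 and Trbc2 among its leading genes, of which Gzma is also in the marker list of NK cells, and the part of NK cells in these differences was not tested. In these T cells the choroid plexus markers summed to 340 to 729 CPM in sham + WT and 7891 to 10690 CPM in sham + Lrg1-/-, and haemoglobin to 21.2 to 26.6 and 4971 to 15020 CPM, while the 5 microglial markers summed to 439.9 to 659 and 441 to 667 CPM.

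Astrocytes had 1 member called in each of 3 contrasts. Itgav was at 141, 154 and 141 CPM in sham + WT and at 289 and 303 CPM in MCAO/R + WT (1.03 ± 0.16, adjusted p = 0.00178), where 1 of 6 tested members was called against 7.59% of all genes. Itga6, which anchors endfeet to laminin, was at 213, 229 and 225 CPM in sham + WT and at 338, 333 and 395 CPM in sham + Lrg1-/- (0.66 ± 0.16, adjusted p = 0.0275), 1 of 6 against 4.84%. This call was lost in each fit without 1 of these 6 libraries (0.58 to 0.69) and with unnamed clusters added (0.52, adjusted p = 0.138). In these astrocytes the choroid plexus markers summed to 452 to 519 CPM in sham + WT and 7285 to 41220 CPM in sham + Lrg1-/-, haemoglobin to 15.2 to 39.6 and 3512 to 6437 CPM, and the 5 microglial markers to 251 to 289 and 305 to 559 CPM. Their part in the difference was not tested. Itgam was higher in MCAO/R + Lrg1-/- by 2.07 (adjusted p = 0.022), 1 of 6 against 5.23%, with 3 of 5 libraries at or below the highest tracer share, and was lost without MCAO/R + WT replicate 2 (1.42) or any MCAO/R + Lrg1-/- library (1.91 to 2.15).

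In cells named neurons, 3 of 9 tested members were higher in MCAO/R + Lrg1-/- against 5.35% of all genes. Itgam was at 6.84 and 6.39 CPM in WT and at 80.5, 22.0 and 69.7 CPM in Lrg1-/- (3.09 ± 0.50, adjusted p = 0.00776). Itga5 (2.54, adjusted p = 0.0242) and Itgav (1.43, adjusted p = 0.0455) were the others. The 5 microglial markers summed to 73.9 to 98.4 CPM in the WT and 134.5 to 588 CPM in the Lrg1-/- libraries of these cells, and 4, 3 and 2 of 5 libraries were at or below the highest tracer share for Itga5, Itgam and Itgav. Itgam was not called without either MCAO/R + WT library (3.18 and 3.10), Itga5 in 3 such fits (2.19 to 2.64) and Itgav in 8 (1.14 to 1.55).

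The other parts of the integrin system were followed in the 3 largest cell types. Of the other integrin subunits, 3 of 15 tested in microglial cells were higher in MCAO/R + Lrg1-/-, a share at the background of 20.1% of all genes: Itgax (1.42), the CD11c gene, Itga11 (1.03) and Itga9 (0.57). In sham microglial cells 6 of 15 were called against 22.5% of all genes, 4 higher and 2 lower in Lrg1-/-, with Itgb4 (2.0) and Itgb8 (1.67), the beta chain that activates latent TGF-beta, among the higher and Itgad (-1.96) and Itgae (-1.31) the lower. In endothelial cells 4 of 15 were called after MCAO/R, at the background of 26.8%, with Itga2b (1.71) and Itgb8 (1.30) higher and the laminin and collagen receptor chains Itga3 (-0.85) and Itga1 (-0.43) lower in Lrg1-/-; after sham Itga10 was called higher, 1 of 15 against 13.9%. In oligodendrocytes 3 of 13 were called after MCAO/R against 29.1%, Itga7 and Itgb7 higher and Itgad lower (-1.52). With surgery in WT, Itgad was higher in oligodendrocytes by 4.22, from a mean of 20.4 to 382 CPM, where 6 of 13 were called against 26% of all genes, and Itga3 in endothelial cells by 1.73, where 3 of 15 were against 21.5%. Microglial Itga9 fell by 1.53 on the log2 scale in WT, from a mean of 217 to 75.0 CPM, 1 of 4 calls among 15 against 21.3%.

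Of the 21 tested activators and adaptors, 6 were called in MCAO/R microglial cells between genotypes, 2 higher and 4 lower in Lrg1-/-, against 20.1% of all genes. Apbb1ip, which recruits talin, was higher (0.63), as was Ptk2, focal adhesion kinase (0.51), and the small GTPase Rap1b (-0.76), vinculin, Vcl (-0.64), and Ptk2b (-0.52) were lower. In endothelial cells 7 were called against 26.8%, 2 higher and 5 lower: the parvins Parvg (-1.79) and Parvb (-1.53, from a mean of 591 to 205 CPM) and Src (-0.88) were lower. Oligodendrocytes had 5 called against 29.1%, all higher, with Apbb1ip (1.78), Fermt3 (1.39), the kindlin of blood cells, and Parvg (1.18) first. The microglial markers in these cells were higher in the same group, as given above, and Apbb1ip and Fermt3 were at or below the highest tracer share in 5 of 5 libraries and Parvg in 1 of 5. In sham mice 4 were called in endothelial cells against 13.9%, all lower in Lrg1-/- (Rap1b by -0.64, Ptk2 by -0.46, Parvb by -0.42), and 4 in microglial cells against 22.5%, 2 in each direction. Surgery in WT gave 8 calls in microglial cells against 21.3%, with Parvb (1.12) highest and Tln2 (-1.41) lowest.

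Of the 22 tested ligands, 8 were called in MCAO/R endothelial cells between genotypes, 6 higher and 2 lower in Lrg1-/-, against 26.8% of all genes. Spp1, osteopontin, a ligand of alphav beta3 and alpha4 beta1, was higher by 3.42 (means of 53.7 and 573 CPM), and Ccn2 (-2.98, from 401 to 50.2 CPM) and Icam1 (-0.91), the LFA-1 counter-receptor, were lower. Endothelial Spp1 stood at 8.09% to 26.4% of its microglial level, against 2.58% to 13.2% for the microglial tracers, with 1 of 5 libraries at or below the highest tracer, and the part of free RNA in it was not tested. In MCAO/R microglial cells 4 were called against 20.1%, Fbln5 and Lamc1 (0.83) higher and Vtn, vitronectin (-1.53), and Ccn2 (-1.51) lower, while Spp1 had means of 608 CPM in WT and 5422 CPM in Lrg1-/- and was not called. The part of free RNA from other cell types in these microglial calls was not tested. Oligodendrocytes had 6 called against 29.1%, all higher, led by Spp1 (4.60), at 5.99% to 23.9% of its microglial level, and Thbs1 (3.76). With surgery in WT, 6 of 22 rose in microglial cells against 21.3%, with Spp1 (6.36), Ccn2 (2.72) and Fn1, fibronectin (1.98), first.

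The genes most like each member across cell types were ranked by Pearson's r of log2(CPM + 1) over 63 means, each of 1 cell type in 1 group, among 22849 genes. The points share libraries, so r is a description. Itgam was most like Mpeg1 (0.932), Spi1 (0.925) and Tyrobp (0.924), and Itgb2 like Fermt3 (0.916), Hcls1 (0.915) and Glipr1 (0.914). Itgal was most like Gpr132 (0.944), Cytip (0.919) and Lsp1 (0.909), and Itga4 like Ifi203 (0.803), Mndal (0.794) and Btg1 (0.789). For Itga5 these were Map2k3 (0.844), Plin2 (0.839) and Trib1 (0.838). Itgav was most like Gm13684 (0.857), with which it overlaps on the other strand, then Abi1 (0.791) and Gak (0.76). Itgb5 was nearest to Zfhx3 (0.844), Adap2 (0.837) and Asph (0.781), Itga6 to Slc7a5 (0.808), S1pr1 (0.784) and Adgrg1 (0.75), and Itgb1 to Rassf1 (0.846), Ppp1r12c (0.844) and Arhgap1 (0.835). Itgb3 had the weakest likeness, with Slamf6 (0.718), Isy1 (0.682) and Slamf1 (0.676).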

How the data were processed

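Right brain cells of 11 mice were profiled with the 10x Genomics 3′ kit. The authors deposited unnormalized UMI counts for each gene in each barcode, made with Cell Ranger (7.0.1 per the file headers) and STAR on mm10, per the submitters' processing notes. The study's methods name an earlier Cell Ranger version than the file headers. Whether intronic reads were counted is not given in the sources used here. Cells with over 500 genes, over 1000 UMIs and under 25% mitochondrial UMIs were retained, predicted doublets were removed, and cells were clustered (Python 3.11.15 with scanpy 1.11.5, leidenalg 0.10.2, scikit-learn 1.9.0, pandas 2.3.3, scipy 1.17.1 and numpy 2.4.6) without any Itga or Itgb gene, haemoglobin genes, mitochondrial genes or Lrg1. Clusters were named from marker lists, and those with no clear pattern were left unnamed. Counts were summed per library and cell type, with at least 20 cells per library, and fitted with edgeR 4.0.16 (limma 3.58.1, R 4.3.3; quasi-likelihood test, TMM, filterByExpr, two-sided, all groups in 1 fit). A contrast needed 2 libraries per group. Adjusted p-values are Benjamini-Hochberg over all genes of a cell type, and a call needed an adjusted p below 0.05 and a natural-log fold change beyond 0.25. CPM are TMM-adjusted. Fold changes are log2. The test was checked on simulated counts. Alternatives included DESeq2 1.42.0, other filters and each library left out. All 10 members were followed in every cell type tested, of which the text names each that was called and some that were not, and a plot shows all that were tested; of the lists of other subunits, adaptors and ligands, at most the 3 called genes with the largest change per direction, contrast and cell type were. The members and lists were chosen with earlier results of these data known. The depth of each library limits low-level chains such as Itgal, for which UMIs are given in microglial cells, endothelial cells and oligodendrocytes. The mice are the replicates. Free RNA was followed with 5 microglial marker genes; a further gene planned for that list is not reported here.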

Additional observations from a re-analysis of the deposited data

Results flagged for a closer look

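In 3 results the change with surgery differed between the genotypes by the interaction term of the edgeR fit. Endothelial Itga4 had an interaction of 1.541 (log2), endothelial Itgal of 3.08 and microglial Itga6 of 0.8293, and all 3 were higher in Lrg1-/- than in WT mice relative to sham. Endothelial Itga4 was called in 10 of 21 alternatives, endothelial Itgal in 7 of 20 and microglial Itga6 in 10 of 21.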

How the results depend on the processing

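Of the 75 calls over the 5 contrasts, 16 were kept in every alternative run, 15 were lost in 1 or 2, 20 in 3 to 5 and 24 in over 5. The number of pairs called in sham Lrg1-/- against WT (11 pairs) became 22 with no filter on low counts, 17 with doublets kept, 3 with cells thinned to 1000 UMIs, 19 with only the groups compared and 6 to 15 without 1 library. After MCAO/R (24 pairs) it became 38 with no filter, 9 thinned, 12 with only the groups compared and 8 to 25 without 1 library. Surgery in WT (20 pairs) gave 6 thinned and 12 to 20 without 1 library, and surgery in Lrg1-/- (17 pairs) gave 32 with no filter, 6 thinned and 6 to 24 without 1 library. The interaction (3 pairs) gave 5 by the DESeq2 test, 9 with no filter, 0 thinned (6 of 60 at an unadjusted p below 0.05) and 0 to 6 without 1 library. The shares of all pairs called moved too: 7.32% with no filter, 6.61% thinned and 13% with only the groups compared after sham, and 10.2%, 13.2% and 6.89% after MCAO/R, where 110, 65 and 96 member pairs were tested; thinned, 12.1% and 10% with surgery in WT and Lrg1-/-, and 7.78% in Lrg1-/- with no filter. Where MCAO/R + WT was left with 1 library, that library was assumed to vary like the other groups. The interaction was not refitted on part of the groups. Itga6 in oligodendrocytes with surgery in Lrg1-/- reversed to -0.01029 with doublets kept. The difference of microglial Itga5 with surgery in WT was negative within single clusters, as given above. No pairing by replicate number was seen: 0 of 13 same-number pairs per cell type had deviations that correlated above 0.1 (r from -0.454 to 0.0592 in microglial cells, -0.463 to 0.0995 in endothelial cells and -0.321 to 0.0739 in oligodendrocytes). The deviations of the MCAO/R + WT libraries mirror each other, so these r depend on each other and cannot exclude pairing. With the replicate number as a block, the counts were 6, 16, 13, 12 and 0 in the same order of contrasts, against 4.7%, 10.4%, 7.15%, 8.61% and 0.567% of all pairs, the last with 14 of 87 pairs at an unadjusted p below 0.05 in edgeR. Adding unnamed clusters to their best-scoring cell type, an alternative chosen after seeing the data like the fits within single clusters, kept 56 of the 75 calls, and the DESeq2 test kept 72. Thinning left 21, with fewer counts. The cause of the other changes was not tested.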
